A study of Mus musculus with 4 samples.

Results

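The 8 genes described here are long noncoding RNAs, out of 40213 gene symbols in the counts: *Malat1*, *Neat1* and *Kcnq1ot1*, which stay in the nucleus, *Gas5*, *Snhg1* and *Snhg12*, which carry small nucleolar RNAs (snoRNAs) in their introns, and the uncharacterized *Gm26917* and *Gm33272*. They were chosen by name as nuclear or snoRNA host RNAs, except that *Gm26917* was selected on its share of the counts and *Gm33272* on its lower counts in the libraries labelled cKO. Those 2 features are therefore given as descriptions, and *Gm33272* received no test. All 8 passed the filter on low counts, which left 12393 genes for testing. By RefSeq biotype, 11939 symbols of the files are long noncoding RNAs, of which 3182 had a count. The RefSeq table used here (GRCm38.p6) held 7 of the 8 genes, all but *Gm26917*, although the row counted for *Gm26917* is a RefSeq transcript too.

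Bulk RNA-seq was performed on CD24+ emergency progenitors (EPs), CD11c+CD117+ cells that accumulate in the spleen when Flt3 ligand is raised. The paper describes EPs as mixed, holding dendritic cell (DC) progenitors along with conventional DCs that are fully differentiated. There were 2 libraries of WT mice and 2 of TopBP1cKO mice, in which floxed Topbp1 alleles are combined with CD11c-cre, so that Cre depends on the CD11c promoter and deletion can begin only once that promoter is active. Young adult mice of both groups received 10 μg of Flt3L-Ig intraperitoneally on days 0 and 3, and the cells were sorted on day 9. The groups are called WT and cKO after the library labels. Whether the libraries come from separate mice or pools is not given in the sources used here, so p-values measure only the spread between these libraries, which may be technical.

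The libraries held 14561583 to 15193831 counts. *Topbp1*, the gene targeted in the cKO mice, had 1102 and 1143 counts in WT and 773 and 1279 in the libraries labelled cKO, so its counts did not separate the labels. The fitted log2 ratio of cKO to WT, also called the log2 fold change here, was −0.20 (SE 0.21, FDR 0.774). FDR is the p of edgeR's quasi-likelihood test adjusted over all genes tested. All 10 listed EP markers were counted in every library, among them *Irf8* with 29887 to 37998 and *Cd24a* with 11686 to 14001 counts. cKO replicate 2 stood apart: 20 cell cycle genes summed to 41493 counts there. They summed to 15500 in cKO replicate 1 and to 11037 and 11393 in WT. For all 20, both cKO libraries lay above both WT libraries, beside 22.8% of all genes tested, and 0 were called. All 20 had an unadjusted p under 0.05 (edgeR), beside 10.7% of all genes, and the median log2 fold change was 1.29. The 13 neutrophil markers summed to 18792 to 21208 counts in WT and 38067 to 48959 in cKO, with none at 0 in every library. Of them 5 were called higher, beside 0.105% of all genes called in either direction. Both cKO libraries lay above both WT libraries for 11 of the 13. *Mpo* (8464, 6391, 13311 and 3014 counts, WT before cKO) and *Elane* (1392, 993, 1973 and 529) were instead lowest in cKO replicate 2. The part of the cell cycle and neutrophil differences in the values below was not tested. In bulk RNA, fewer cells of a type and less RNA per cell cannot be told apart.

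Most messenger RNAs leave the nucleus to be translated, whereas many long noncoding RNAs act where they are made. *Malat1* collects in nuclear speckles, domains rich in splicing factors, *Neat1* is the scaffold of paraspeckles, and *Kcnq1ot1* is transcribed from the paternal allele and silences neighboring genes of its imprinted domain. The snoRNA hosts are different in that their spliced RNA is largely a by-product: the introns are processed into snoRNAs that guide modification of ribosomal RNA, and the remaining exons are degraded in the cytoplasm by nonsense-mediated decay, which depends on translation.

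Host genes of this kind often begin, like ribosomal protein genes, with a C at the cap followed by a run of pyrimidines, the terminal oligopyrimidine (TOP) tract that ties translation of the transcript to growth signals. To show this feature, 60 bases around annotated starts are printed 5′ to 3′ on the transcribed strand, 30 bases on each side, with capitals marking a C followed by at least 4 bases that are each C or T and beginning within 10 bases of the start. Sequences are from RefSeq (GRCm38.p6), while the counts were made on GRCm39. *Gas5* lies at chr1:161035136-161035195 (+), *Snhg12* at chr4:132308648-132308707 (+), *Snhg1* at chr19:8723457-8723516 (+) and *Zfas1*, another host described below, at chr2:167062904-167062963 (+).
Gas5: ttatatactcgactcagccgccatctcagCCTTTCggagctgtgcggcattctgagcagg
Snhg12: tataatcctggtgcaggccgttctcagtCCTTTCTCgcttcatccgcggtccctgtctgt
Snhg1: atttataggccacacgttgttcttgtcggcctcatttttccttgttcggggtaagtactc
Zfas1: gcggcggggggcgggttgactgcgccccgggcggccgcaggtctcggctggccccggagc
*Gas5* had a tract of 6 bases beginning 1 base before the annotated start and *Snhg12* one of 8 bases beginning 2 bases before it. *Snhg1* and *Zfas1* had none in that interval. *Gas5* has a further annotated start, which lacked a tract. Such a tract was found in 28 of 48 ribosomal protein genes (58.3%), 8 of 15 other snoRNA hosts (53.3%) and 9297 of all 27025 genes with a window (34.4%). Only the transcribed strand was searched, and a match describes these letters alone.

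**Figure D1:**
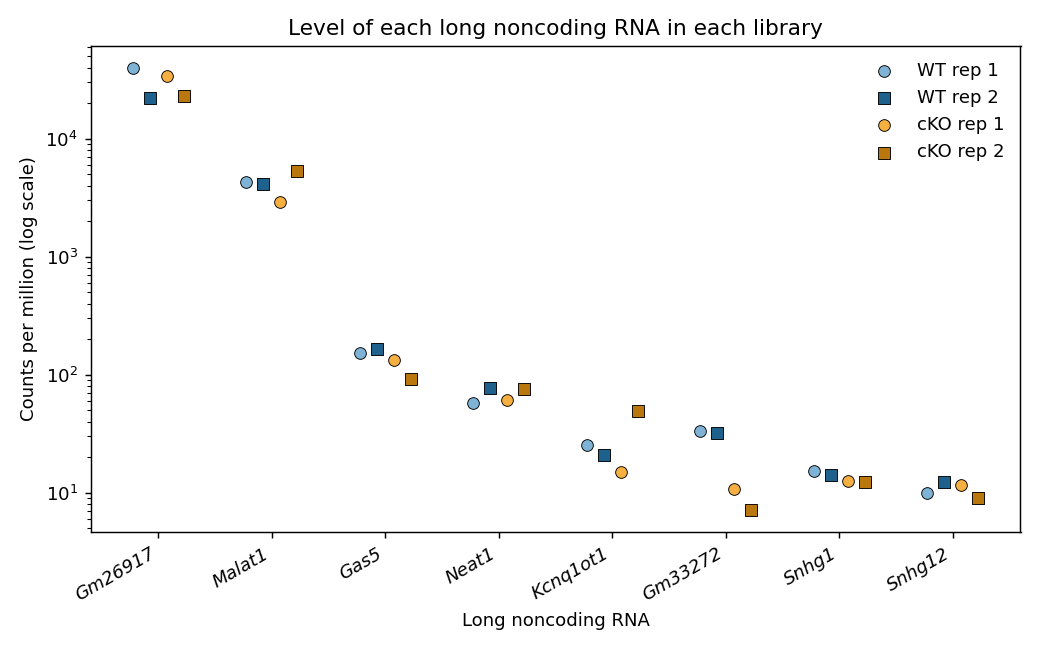
CPM (counts per 1000000 of the library after edgeR's TMM scaling, log scale, not corrected for transcript length) of the 8 long noncoding RNAs in each of the 2 WT and 2 cKO libraries, 1 point per library. *Gm33272*, chosen for its lower counts in cKO, is the gene whose 4 points separate most by genotype. *Kcnq1ot1* and *Malat1* have their highest and lowest points in the 2 cKO libraries.

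Of the 7 genes tested, 0 passed FDR < 0.05 between the genotypes in edgeR's quasi-likelihood test, where 13 of 12393 genes did (0.105%). Only *Gas5* had an unadjusted p under 0.05 (FDR 0.380, edgeR), 1 of the 7, where 10.7% of all genes tested did, and DESeq2, limma-voom and the likelihood ratio test also called 0 of the 7. Both cKO libraries lay below both WT libraries for *Gas5* and *Snhg1*, as was the case for 20.8% of all genes tested, and for *Gm33272*, which was chosen for it. For none of the 7 did both cKO libraries lie above both WT libraries, which 22.8% of all genes did. The median log2 fold change of the 8 was −0.12, a description only, since it includes the selected *Gm33272*. The median was 0.0084 over all genes tested and −0.080 over the 632 long noncoding RNA genes tested.

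The libraries of one genotype often differed more than the genotypes. Between the 2 cKO libraries, *Kcnq1ot1*, *Malat1* and *Gm33272* differed by at least 1.5-fold, as did 17.8% of all genes tested. Between the 2 WT libraries, *Gm26917* alone of the 8 did so, against 8.37% of all genes.

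**Figure D2:**
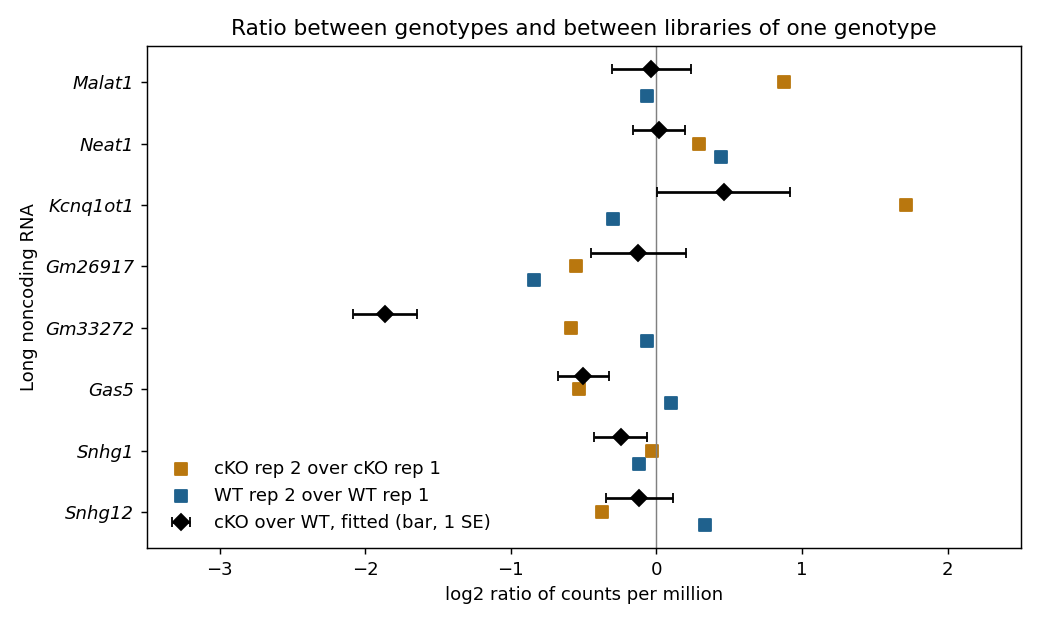
log2 ratio of CPM for each long noncoding RNA between genotypes (black diamonds, fitted value with bars of 1 SE), between cKO replicates (orange squares) and between WT replicates (blue squares). The orange square lies farther from 0 than the diamond for *Malat1* (0.88 against −0.03) and *Kcnq1ot1* (1.72 against 0.46). For *Gm33272*, chosen for its lower counts in cKO, the diamond lies farthest (−1.86), and its bar is not a test.

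*Malat1* was the most counted of these RNAs after *Gm26917*. It had 60569 and 61979 counts in WT and 43939 and 81914 in the libraries labelled cKO, or 4280, 4100, 2884 and 5297 CPM. The WT libraries lay close together and between the cKO libraries, of which replicate 1 was the lowest and replicate 2 the highest of the 4. The means were 4190 ± 126.8 CPM in WT and 4091 ± 1706 in cKO (SD, n = 2 each), giving a fitted log2 ratio of −0.03 (SE 0.27, FDR 0.976). *Malat1* took 0.416% (95% exact binomial interval 0.413 to 0.419) and 0.408% (0.405 to 0.411) of the WT counts. It took 0.290% (0.287 to 0.293) and 0.543% (0.539 to 0.546) of the cKO counts. These intervals cover counting error only, and the cKO intervals lie far apart. The direction depended on which cKO library was compared. Without cKO replicate 2 the log2 fold change was −0.55, and without cKO replicate 1 it was 0.34. Such fits hold a single cKO library, which shows no spread among cKO libraries.

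Proteins of the nuclear speckles showed a smaller spread. Of 12 listed, all were tested, 0 were called in either direction (1 at an unadjusted p under 0.05, edgeR), 10 had a positive and 2 a negative log2 fold change, and the median was 0.14. *Srrm2*, a splicing coactivator of the speckle core, had 13413 and 15355 counts in WT and 13574 and 18774 in cKO (log2 fold change 0.10, SE 0.17). *Son*, the other core scaffold, had 11517, 12416, 12213 and 12188 in the same order. The splicing factor gene *Srsf7* had the largest ratio of the list, 0.35 (SE 0.12, FDR 0.380, edgeR), and *Srsf11* the most counts after those 2, with a ratio of −0.26 (SE 0.12).

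*Neat1* had 805 and 1169 counts in WT and 932 and 1159 in cKO. Each genotype had a lower and a higher library and their ranges overlapped, at 67.1 ± 14.5 CPM in WT and 68.1 ± 9.74 in cKO (SD, n = 2 each). The log2 fold change was 0.02 (SE 0.18, FDR 0.980). *Neat1* is made as a short and a long RNA from the same start, and only the long one builds paraspeckles. The row of the short form (NR_003513.3) held 664, 1043, 830 and 974 counts, and that of the long form (NR_131212.1) 141, 126, 102 and 185. The long form thus held 17.5% and 10.8% of the gene's counts in WT and 10.9% and 16.0% in cKO, with no separation of the genotypes. The short RNA lies wholly within the long one, so the split between the rows depends on how shared reads were assigned.

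The partners of *Neat1* were counted in every library. Of 13 listed paraspeckle proteins, all were tested and 0 called (1 at an unadjusted p under 0.05), 11 had a positive log2 fold change and the median was 0.062. *Hnrnpk* had 8446, 8508, 8715 and 9874 counts. *Nono* had 8115, 8832, 7823 and 7829 counts, and *Sfpq*, its heterodimer partner, 6646, 7778, 7868 and 9021. These 2 core proteins differed in sign, at −0.18 (SE 0.12, FDR 0.627) and 0.16 (SE 0.13, FDR 0.705). *Fam98a* (0.38) and *Tardbp* (0.31) had the largest ratios of the list.

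*Kcnq1ot1* was the gene of the 8 that differed most between the 2 cKO libraries. It had 361 and 314 counts in WT, 226 in cKO replicate 1 and 755 in cKO replicate 2. Again the cKO libraries held both the lowest and the highest value, and they differed 3.29-fold. Only 1.44% of all genes tested differed more between those 2 libraries, and 9.05% differed more than *Malat1*, which was 1.84-fold higher in replicate 2. The means were 23.1 ± 3.35 CPM in WT and 31.8 ± 24.04 in cKO (SD, n = 2 each), giving a fitted log2 ratio of 0.46 (SE 0.46, FDR 0.757, edgeR). Without cKO replicate 2 it was −0.65, and without cKO replicate 1 it was 1.08.

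Of 15 genes of the imprinted domain and its surroundings, 7 passed the filter, 0 were called in either direction (1 at an unadjusted p under 0.05) and the median log2 fold change was 0.045, with 4 positive and 3 negative values. *Cd81*, a tetraspanin gene at the edge of the domain, had 1515 and 1521 counts in WT and 1100 and 913 in cKO (log2 fold change −0.66, SE 0.14, FDR 0.307), with no overlap of the groups. *Slc22a18* had 106, 113, 90 and 50 counts (−0.71, SE 0.32, FDR 0.492). *Nap1l4* (1852, 2046, 2140 and 2076) and *Tssc4* (235, 249, 290 and 181) overlapped between the groups. *Cdkn1c*, the growth inhibitor that *Kcnq1ot1* is best known for silencing, had only 10, 21, 20 and 22 counts (0.38, SE 0.50). Between cKO replicate 2 and cKO replicate 1, *Kcnq1ot1* itself had a log2 ratio of 1.72. Of the 7 tested genes of the domain, 6 had a negative ratio and *Cdkn1c* a positive one (0.11). Over all genes tested, 6042 of 12393 had a positive ratio. The lowest of the 7 ratios was −1.13, for *Tspan32*, with 46 counts in cKO replicate 1 and 21 in cKO replicate 2. The median of the 7 was −0.29, against −0.012 over all genes tested. Of the 7, 3 differed by at least 1.5-fold, beside 17.8% of all genes. These values compare single libraries and received no test.

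Other long noncoding RNAs were listed for comparison. Of 30, 13 were tested, 0 were called (2 at an unadjusted p under 0.05) and the median log2 fold change was 0.17. *Xist*, which coats the inactive X chromosome, had 10777 and 12558 counts in WT, 11476 in cKO replicate 1 and 21365 in cKO replicate 2, a log2 ratio between the cKO libraries of 0.88, the same to 2 decimals as for *Malat1*. *Norad* (2965, 3076, 3177 and 3420) and *Tug1* (2706, 2757, 2781 and 2623) varied little. *Pvt1*, a neighbor of *Myc*, had 21 and 32 counts in WT and 68 and 87 in cKO (log2 fold change 1.48, SE 0.34, FDR 0.307). *Rpph1*, the RNA of RNase P, had 11, 5, 37 and 8 counts.

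Levels can be set between genes only per length, for which transcript lengths were matched by accession (GENCODE vM21). In counts per kilobase and per 1000000 counts of the library, without TMM scaling, *Malat1* (6983 bases) had 415 to 777 over the 4 libraries, although its accession version differed. *Snhg1* (605 bases) had 20.7 to 24.5, the short *Neat1* row (3004 bases) 15.2 to 22.9 and *Snhg12* (606 bases) 15.1 to 20.3. These ranges overlapped between neighbors in the order. The long *Neat1* row (20771 bases) had 0.324 to 0.590 and *Kcnq1ot1* (93092 bases) 0.160 to 0.537, and these overlapped too. Thus *Kcnq1ot1*, with more counts than *Snhg1* in each library, had the lowest level per length. No length was matched for *Gm26917*, *Gas5* or *Gm33272*.

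*Gm26917* held more counts than any other gene in each of the 4 libraries, all in 1 transcript row (NR_170994.1). It had 562252 and 335626 counts in WT and 514603 and 356126 in cKO. These were 3.86% (95% exact binomial interval 3.85 to 3.87) and 2.21% (2.20 to 2.22) of the WT counts. In cKO they were 3.40% (3.39 to 3.41) and 2.36% (2.35 to 2.37). Replicate 1 was the higher in each genotype, although the replicate numbers are only names. The log2 fold change was −0.12 (SE 0.33, FDR 0.927), while the WT libraries differed 1.79-fold, more than all but 4.60% of the genes tested. Without WT replicate 1 the value was 0.35, and without WT replicate 2 it was −0.50.

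GENCODE places *Gm26917* beside *Gm42418*, which RefSeq names *Rn18s-rs5*, a pseudogene of the 18S ribosomal RNA. No 31-base word of *Gm26917* occurred in another GENCODE gene, so no exact match to *Gm42418* was found at this word length. Only GENCODE transcripts, read on their own strand, were compared. Whether reads of ribosomal RNA fell on the *Gm26917* row was not tested. Whether ribosomal RNA was depleted or poly(A) RNA selected is not given in the sources used here. Of the cytoplasmic ribosomal RNAs listed, *Rn5s* had 0 counts in each library, which allows up to 3, and the others were not analysed here, nor was *Gm42418*. The mitochondrial ones were counted. *mt-Rnr2*, the large mitochondrial ribosomal RNA, had 127489, 72747, 91246 and 138515 counts, and *mt-Rnr1*, the small one, 64776, 37677, 48097 and 67127. As for *Gm26917*, WT replicate 1 exceeded WT replicate 2, but cKO replicate 2 exceeded cKO replicate 1, the opposite order.

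**Figure D3:**
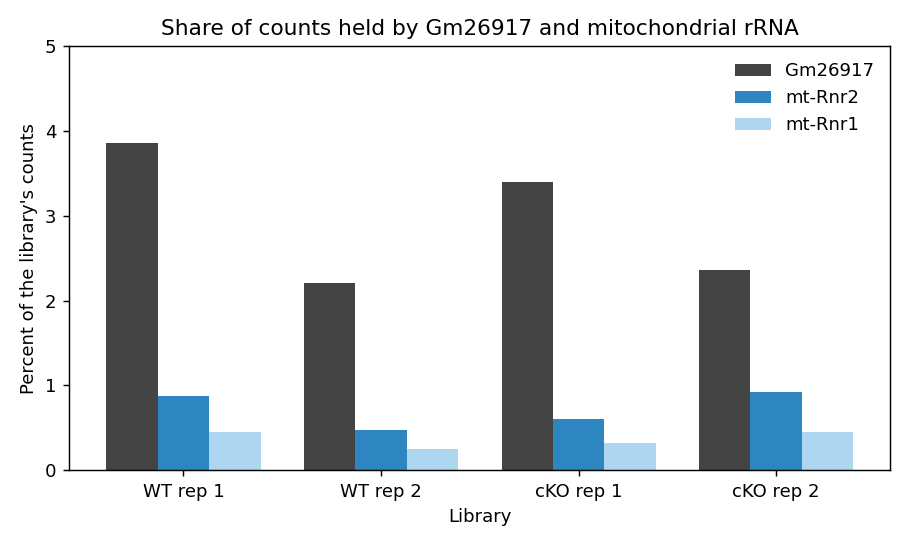
Percent of each library's counts held by *Gm26917* (dark bars) and by the mitochondrial ribosomal RNAs *mt-Rnr2* and *mt-Rnr1* (blue bars). *Gm26917* took 3.86% and 3.40% in the replicate 1 libraries and 2.21% and 2.36% in the others, a split that cuts across genotype.

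Because *Gm26917* is so large a share, the total against which the other 7 genes are set moves with it. Together those 7 took 0.442% of the WT and 0.441% of the cKO counts (means of 2 libraries). Most of this was *Malat1*, which took 0.416% and 0.408% of the WT and 0.290% and 0.543% of the cKO counts. The cKO mean thus joins unequal libraries. With *Gm26917* and the ribosomal RNA rows taken out of the total, the mean shares of the 7 were 0.461% and 0.459%.

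*Gm33272* was chosen for its lower counts in cKO and is described without a test. It had 469 and 480 counts in WT and 163 and 110 in cKO, or 33.1, 31.8, 10.7 and 7.11 CPM. The WT libraries were nearly alike and both well above the cKO libraries, with means of 32.4 ± 0.978 and 8.91 ± 2.54 CPM (SD, n = 2 each) and a fitted log2 ratio of −1.86. It was −1.61 without cKO replicate 2 and −3.16 when only the most abundant transcript row was used. All of these use the counts by which the gene was chosen and lend no support to its difference. Among long noncoding RNAs ordered by counts, it ranked 31 in both WT libraries and 77 and 111 in the cKO libraries.

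The counts were spread over 5 transcript rows, which did not all behave alike. XR_004940600.1 had 229 and 234 counts in WT, 54 in cKO replicate 1 and 0 in cKO replicate 2. XR_004940601.1 had 114, 148, 33 and 26 in the same order, and XR_004940599.1 had 47, 57, 8 and 18. XR_001782921.2 had 79 counts in WT replicate 1, 0 in WT replicate 2 and 68 and 66 in cKO, so this row was not lower in cKO in the way of the others. Such switches between rows of 1 gene show that the split among them was unstable, and the sum is the safer value.

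RefSeq's GRCm38.p6 annotation puts *Gm33272* on the Y chromosome between *Mid1-ps1* and LOC108168645, at the pseudoautosomal end that X and Y share. Its annotated start, printed with 30 bases on each side, is at chrY:90793657-90793716 (+), with no TOP-like tract.
Gm33272: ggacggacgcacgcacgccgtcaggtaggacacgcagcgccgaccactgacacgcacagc
Genes outside that shared end tell the sex chromosomes apart. The Y-linked genes *Ddx3y*, *Eif2s3y*, *Kdm5d*, *Uty* and *Zfy1* summed to 0 or 1 count in each library, while *Xist* had 10777 to 21365. The counts of *Gm33272* were therefore present in libraries with almost no counts from Y-linked genes.

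Genes of the pseudoautosomal region, a list chosen after their values were seen and given without a test, differed between the genotypes to different degrees. *Erdr1x_1* had 1028 and 1506 counts in WT and 727 and 359 in cKO, and *Erdr1x* 202, 460, 125 and 0. These rows are near-copies of a single gene, and how reads were divided between them is uncertain. *Mid1*, a ubiquitin ligase gene that crosses the region's boundary, had 141, 145, 101 and 50 counts. *Nlgn4l* (110, 136, 116 and 109) and *Akap17a* (261, 474, 342 and 287) lay closer between the genotypes. The 9 genes summed to 1792 and 2838 counts in WT and 1495 and 830 in cKO.

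**Figure D4:**
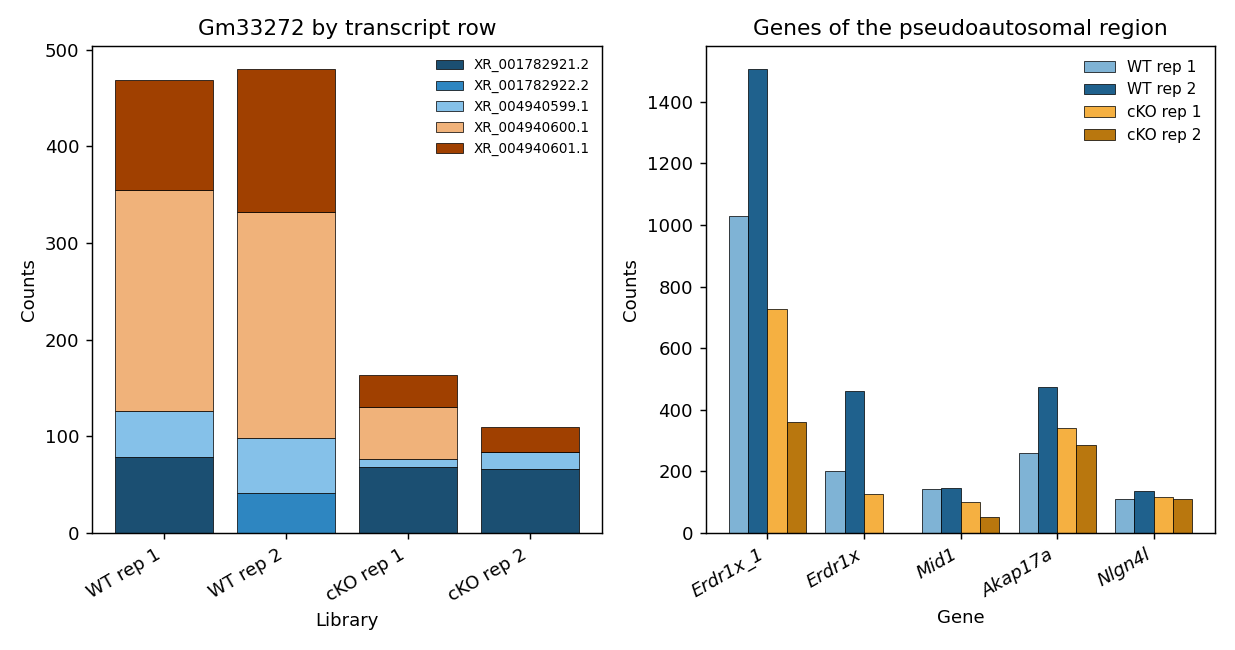
Counts of *Gm33272* by transcript row in each library (left, stacked bars) and counts of 5 genes of the pseudoautosomal region by library (right, bars). *Gm33272* sums to 469 and 480 in WT and 163 and 110 in cKO, and *Erdr1x_1* has its highest bar in WT replicate 2 (1506) and its lowest in cKO replicate 2 (359).

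The genes nearest in pattern were sought among 9231 with a mean count of at least 100, by the root mean square (RMS) distance of log2 CPM centered over the 4 libraries. For *Gm33272* they were *Gm38794* (543, 564, 295 and 131 counts, distance 0.270), *Pctp* (295, 307, 161 and 119, distance 0.355), which encodes a phosphatidylcholine transfer protein, and *Erdr1x_1* (distance 0.362). *Malat1* was nearest to *Wdfy3* (0.038), *Slc12a2* (0.051) and *Fkbp5* (0.055). *Wdfy3*, an autophagy adaptor gene, had 1138, 1174, 882 and 1599 counts, low in cKO replicate 1 and high in cKO replicate 2 as *Malat1* was. *Neat1* was nearest to *Zfp213* (0.023), *A930013F10Rik* (0.025) and *Zfp687* (0.026). *Gm26917* was nearest to *Zfp870* (0.112), *Wls* (0.124) and *Gm14279* (0.127), the last with 446, 219, 384 and 293 counts. With 4 libraries many genes share a pattern, so these distances are descriptions.

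*Gas5*, the most counted snoRNA host, had 2162 and 2469 counts in WT and 2008 and 1411 in cKO. Both cKO libraries lay below both WT libraries, cKO replicate 2 by far the most. The means were 158 ± 7.48 CPM in WT and 112 ± 28.7 in cKO (SD, n = 2 each), giving a fitted log2 ratio of −0.50 (SE 0.18, FDR 0.380, edgeR). The value rested on cKO replicate 2: without it the log2 fold change was −0.27, and without cKO replicate 1 it was −0.79. The 2 rows that held most of the gene's counts moved alike in that library. NR_153813.2 had 1041, 1180, 845 and 620 counts and NR_153812.2 had 817, 969, 917 and 573.

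*Snhg1* had 216 and 212 counts in WT and 190 and 189 in cKO. The groups did not overlap, but the distance was small, with 14.6 ± 0.875 CPM in WT and 12.3 ± 0.176 in cKO (SD, n = 2 each) and a fitted log2 ratio of −0.25 (SE 0.18, FDR 0.674). *Snhg12* had 139, 187, 176 and 138 counts, which overlapped fully (11.1 ± 1.80 against 10.2 ± 1.86 CPM, log2 fold change −0.12, SE 0.23, FDR 0.897). Unlike *Gas5*, *Snhg1* was nearly equal in the 2 cKO libraries.

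Of 18 other snoRNA hosts, 13 were tested and 0 were called in either direction, also at an unadjusted p under 0.05 (edgeR) and by DESeq2 or limma-voom. Among the 13, 6 had a positive and 7 a negative log2 fold change, and the median was −0.028. *Zfas1* had 904 and 983 counts in WT, 897 in cKO replicate 1 and 425 in cKO replicate 2 (log2 fold change −0.58, SE 0.30, FDR 0.546). *Epb41l4aos*, named after its values were seen, had 176, 238, 260 and 100. Both were thus low in cKO replicate 2 alone. *Snhg5* (283, 314, 377 and 303) and *Snhg8* (229, 282, 293 and 231) overlapped between the groups, and *Dancr* had 27, 24, 24 and 16 counts (−0.42, SE 0.44). Over the 13 the median log2 ratio of cKO replicate 2 to cKO replicate 1 was −0.29, against −0.012 over all genes tested.

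**Figure D5:**
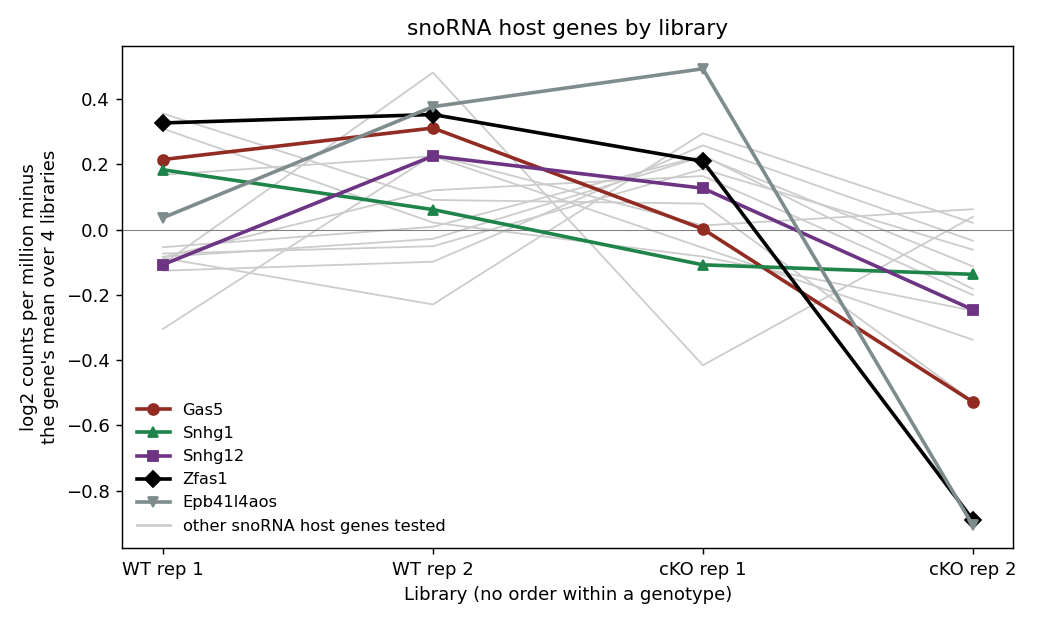
log2 CPM of the snoRNA hosts *Gas5*, *Snhg1* and *Snhg12* and of the 13 other hosts tested (2 of them named), each minus its own mean over the 4 libraries. *Zfas1*, *Epb41l4aos* and *Gas5* are lowest in cKO replicate 2, while *Snhg1* is nearly level between the 2 cKO libraries.

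The snoRNAs themselves were scarcely counted. Of 24 snoRNAs encoded in the introns of *Gas5*, *Snhg1* and *Snhg12*, 10 symbols matched a row, and these held 0 to 2 counts each and summed to 1 to 3 counts per library. Levels of the snoRNAs could not be compared between the genotypes at such low counts. In the reference transcripts, 9.74% of the 31-base words of *Gas5*, 12.9% of those of *Snhg1* and 13.9% of those of *Snhg12* also occurred in another gene, among them *Snord80* for *Gas5* and *Snora16a* for *Snhg12*. The share was 2.39% for *Malat1*, 2.14% for *Neat1* and 2.96% for *Kcnq1ot1*.

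Genes that make, use or degrade the host RNAs were listed as well. Of 12 snoRNP proteins, all were tested, 0 were called (5 at an unadjusted p under 0.05, beside 10.7% of all genes), 11 had a positive log2 fold change and the median was 0.30. *Nop56*, a core protein of box C/D snoRNPs, had 1028 and 1260 counts in WT and 1484 and 2307 in cKO (0.66, SE 0.20, FDR 0.347). *Nop58*, its partner, had 1399, 1625, 1815 and 2434 (0.42, SE 0.15) and *Nolc1*, a chaperone of snoRNPs, 1184, 1319, 1538 and 2039 (0.45, SE 0.15). *Fbl*, the methyltransferase of the same particles, was the exception with 2912, 3524, 3160 and 2813 counts (−0.17, SE 0.13). Both cKO libraries lay above both WT libraries for 10 of the 12, beside the 22.8% of all genes.

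The 15 nonsense-mediated decay factors showed no common direction: 0 were called (2 at an unadjusted p under 0.05), 7 were positive and 8 negative, and the median was −0.0036. *Smg1*, the kinase of the pathway, had 4594, 4217, 4286 and 5343 counts. *Magoh* (0.39) and *Casc3* (−0.33), both of the exon junction complex, had the largest ratios of the list and opposite signs.

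The ribosomal protein genes, the group best known for TOP tracts, were counted at 5.61% and 5.76% of the library in WT, 5.81% in cKO replicate 1 and 4.59% in cKO replicate 2. Of 64 tested, 0 were called, also at an unadjusted p under 0.05 (edgeR), 62 had a negative log2 fold change and the median was −0.17. Over them the median log2 ratio of cKO replicate 2 to cKO replicate 1 was −0.39. *Rpsa* had 33111 and 33187 counts in WT and 34843 and 25196 in cKO. *Gas5* and the ribosomal protein genes were thus both lowest in the library with the most cell cycle counts, in which *Mki67* had 12144 counts against 3052 to 3861 in the others. Whether these differences are connected was not tested, and they rest on 1 library.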

How the data were processed

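Sorted CD24+ splenic EPs of Flt3L-Ig-treated mice were sequenced with the CORALL RNA-seq V2 kit. RNA extraction is given as RNAiso Plus in the labels and RNeasy in the methods. The authors deposited whole-number counts per RefSeq transcript, not normalized. The submitters' processing notes name fastp, STAR, Salmon, GATK and GRCm39, without versions or roles, and whether the counts are rounded estimates is not given in the sources used here.

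Counts of 137259 transcript rows were summed per symbol and tested in R 4.3.3 with edgeR 4.0.16 (TMM factors 0.973 to 1.03, filterByExpr, quasi-likelihood test, 2 cKO against 2 WT, Benjamini-Hochberg FDR over 12393 genes, threshold 0.05). A ratio is a log2 fold change, and its SE is the absolute value divided by the square root of F. CPM use TMM-scaled library sizes. The smallest p of an exact permutation test with 2 libraries per group is 0.333. Alternatives were DESeq2 1.42.0, limma 3.58.1, other normalizations, filters and tests, a replicate block and leaving out each library. The procedure was tested on simulated data.

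The members and gene lists were chosen with earlier results of these data known. Named were all 8 genes, transcript rows with at least 10% of a gene's counts, and from each list the 3 genes with the highest mean CPM and the 2 with the largest ratio. Named too were the 3 genes nearest in pattern to *Gm26917*, *Gm33272*, *Malat1* and *Neat1*. Some genes that this rule names are not reported here. The pseudoautosomal and Y-linked lists were added after the values were seen. Sequence analysis used Python 3.11.15.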

Additional observations from a re-analysis of the deposited data

How the results depend on the processing

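Under the main analysis 13 genes were called, against 137 with the DESeq2 Wald test, 234 with edgeR's likelihood ratio test and 504 with the replicate block. Leaving out 1 library gave 1 gene without WT replicate 2 and 2625 without cKO replicate 1, and a lone library was then assumed to vary like the other group. The replicate numbers are not shown to pair the libraries (correlation of same-numbered deviations −0.00665 over 2 pairs). With the replicate block, 0 of the 7 tested long noncoding RNAs and 1 of the 13 other snoRNA hosts were called, and *Gas5* had FDR 0.0548 (edgeR). Of the 7, between 0 and 3 were called when 1 library was left out: *Malat1* without cKO replicate 2, and *Gas5*, *Kcnq1ot1* and *Malat1* without cKO replicate 1. Of the 13 other snoRNA hosts, 0 to 3 were called. Without cKO replicate 1, calls were common over all 12788 genes tested, so a call of a single gene there carries little weight. More genes were also called without cKO replicate 2 than in the main analysis, so the call of *Malat1* there carries little weight too. The fits without a cKO library hold a single cKO library, which shows no spread among cKO libraries. The calls of *Malat1*, *Gas5*, *Kcnq1ot1* and the other snoRNA hosts in these fits are therefore not counted as differences. The other tests, normalizations and filters called 0 of the 7 and 0 of the other hosts, of which 18 were tested without a filter on low counts. With only the most abundant transcript row of each gene, 0 of the 7 passed and the 13 were not counted.

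The log2 fold change over leave-one-out fits ran from −0.50 to 0.35 for *Gm26917*, −0.65 to 1.08 for *Kcnq1ot1*, −0.55 to 0.34 for *Malat1*, −0.19 to 0.25 for *Neat1* and −0.32 to 0.048 for *Snhg12*, so the sign of these 5 depended on single libraries. *Gas5* stayed between −0.79 and −0.27 and *Snhg1* between −0.32 and −0.18. *Gm33272* was −3.16 when only its most abundant transcript row was used. The mean share of counts held by the 7 genes other than *Gm26917* was 0.461% in WT with *Gm26917* and the ribosomal RNA rows out of the total, against 0.442%. With 2 libraries per group, low counts (*Snhg1*, *Snhg12*) and unequal cKO libraries limit what could be detected.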
